A study of Dicentrarchus labrax with 23 samples.

Results

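Of the 14147 genes on a microarray of European sea bass (Dicentrarchus labrax), 53 carry the names of cytochromes P450, of aldehyde, retinol and short-chain dehydrogenases, of an epoxide hydrolase, of an amine oxidase, or of enzymes that work with glucuronic acid, sulfate or glutathione. They were found by patterns in gene names, which came from a list of genes called different between the anterior and middle intestine (AI-MI) and the posterior intestine (PI). That list names 3652 genes of the array. Names with the word mitochondrial were dropped (3 genes), except for cytochromes P450, and the 10495 genes with no name could not be searched. The members were therefore chosen by the measured AI-MI vs. PI difference, and all values of that comparison below are a description. A fit of that comparison over all probes served only as a background, and its calls of members repeat their choice. For the members, AI vs. MI was the only comparison of segments used as a test.

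The study asked how gene expression changes along the gut of untreated, overnight fasted fish of Mediterranean origin that were reared on a commercial diet. The 3 segments were sampled from front to back, with AI following on the pyloric caeca and the rectum belonging to PI. RNA of 1 segment of 1 fish was labelled with the dye Cy3 and hybridised to each array, giving 8 AI, 7 MI and 8 PI arrays on 3 slides, and each slide held arrays of all segments. The methods name 8 samples of each segment, so MI is incomplete here. The fish formed 1 group, and neither the labels nor the methods name a strain, genotype or treatment that set them apart.

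Levels are log2 of the background-corrected signal relative to the 75th percentile of the same array, so that 0 is the 75th percentile of an array and a step of 1 is a 2-fold difference. Signals of different probes have no common scale, so levels were compared between segments and not between genes. Sums over marker genes add such signals, so probes with high signals weigh most, and the sums were likewise compared between arrays and segments only. The names rest on similarity to proteins of other species, and near-identical copies of a gene family may share a probe's signal. In bulk tissue, fewer cells of a type and less RNA per cell cannot be told apart.

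Cytochromes P450 are haem enzymes that insert oxygen into fatty acids, steroids, vitamins and foreign compounds, and they are the best known enzymes of the first phase of detoxification. Dehydrogenases and reductases change alcohols, aldehydes and ketones into one another, and transferases of the second phase attach glucuronic acid, sulfate or glutathione, which makes compounds more soluble and ready for export. The intestinal epithelium meets dietary compounds before the liver does and carries enzymes of both phases.

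Signals were well above background for 82.8 to 93.1% of the probes of an array, and the 75th percentile lay between 388 and 1183 intensity units. Markers of other cells were looked up by name in the same list of AI-MI vs. PI differences. Each of them therefore differed by its choice, and markers with no difference are absent. All 14 pancreatic acinar genes were higher in AI-MI, with a summed log2 level of 6.57 to 10.71 in AI, 5.70 to 11.86 in MI and 1.84 to 5.77 in PI, and none was at background on all arrays of a segment. The 4 enterocyte genes had a summed log2 level of 8.83 to 9.47 in AI, 8.87 to 9.31 in MI and 3.43 to 6.14 in PI. This sum was led by lactase-phlorizin hydrolase (464-fold higher in AI-MI) and the intestinal fatty acid-binding protein (16.6-fold). Sucrase-isomaltase (1.79-fold) and villin-1 (1.76-fold) differed far less, with overlap between AI-MI and PI. The 3 haemoglobins summed to 0.20 to 4.25 in AI, 1.72 to 5.44 in MI and -1.10 to 2.45 in PI, and the 11 liver plasma proteins, of which alpha-2-macroglobulin was at background on every array, to 2.13 to 3.68, 1.68 to 3.56 and 1.80 to 3.06. In PI the liver sum was led by alpha-2-macroglobulin-like, which had a mean of 2.32 there and was 1.94-fold higher in PI. Plasminogen was 119-fold and coagulation factor XI 6.91-fold higher in AI-MI, both with no overlap. All 4 enterocyte genes, all 3 haemoglobins and 8 of the 10 liver genes tested had the higher mean in AI-MI, and 2 liver genes had it in PI. The part of these cells in the differences between segments was not tested.

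Of the 53 members, 35 had the higher mean in AI-MI and 18 had it in PI, with a median AI-MI minus PI difference of 0.84 on the log2 scale. A probe entered the tests if 7 or more of the 23 arrays showed it well above background, which left 48 members (33 on the AI-MI side, 15 on the PI side) among 12894 probes. By the limma fit across these probes 44.1% passed an adjusted p of 0.05 for AI-MI vs. PI, 21.5% on the AI-MI side and 22.6% on the PI side, and the same fit called all 48 members that it tested, as their choice required. Every AI-MI array lay above every PI array for 10 members (4.03% of the probes tested), and every PI array lay above every AI-MI array for 3 members (4.34%). The difference was at least 2-fold for 30 members, 21 of them higher in AI-MI. Among the 48 tested, 20 were at least 2-fold higher in AI-MI and 7 in PI. The share of all probes at 2-fold was not counted, so these counts are not shown to be particular to these enzymes. By its own test, the paper reports near-equal numbers of genes on both sides at this cutoff. The median absolute difference was 1.05 over the tested members, beside 0.73 over all probes that passed for AI-MI vs. PI. Those probes had no fold limit, while no member was under 1.53-fold. The choice of members thus favoured the larger median, which is not shown to be particular to these enzymes. The members with the smallest differences inside the list were retinol dehydrogenase 8 (1.53-fold) and a probable glutathione peroxidase 8 (1.55-fold), and genes just outside the list have no name here.

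**Figure D1:**
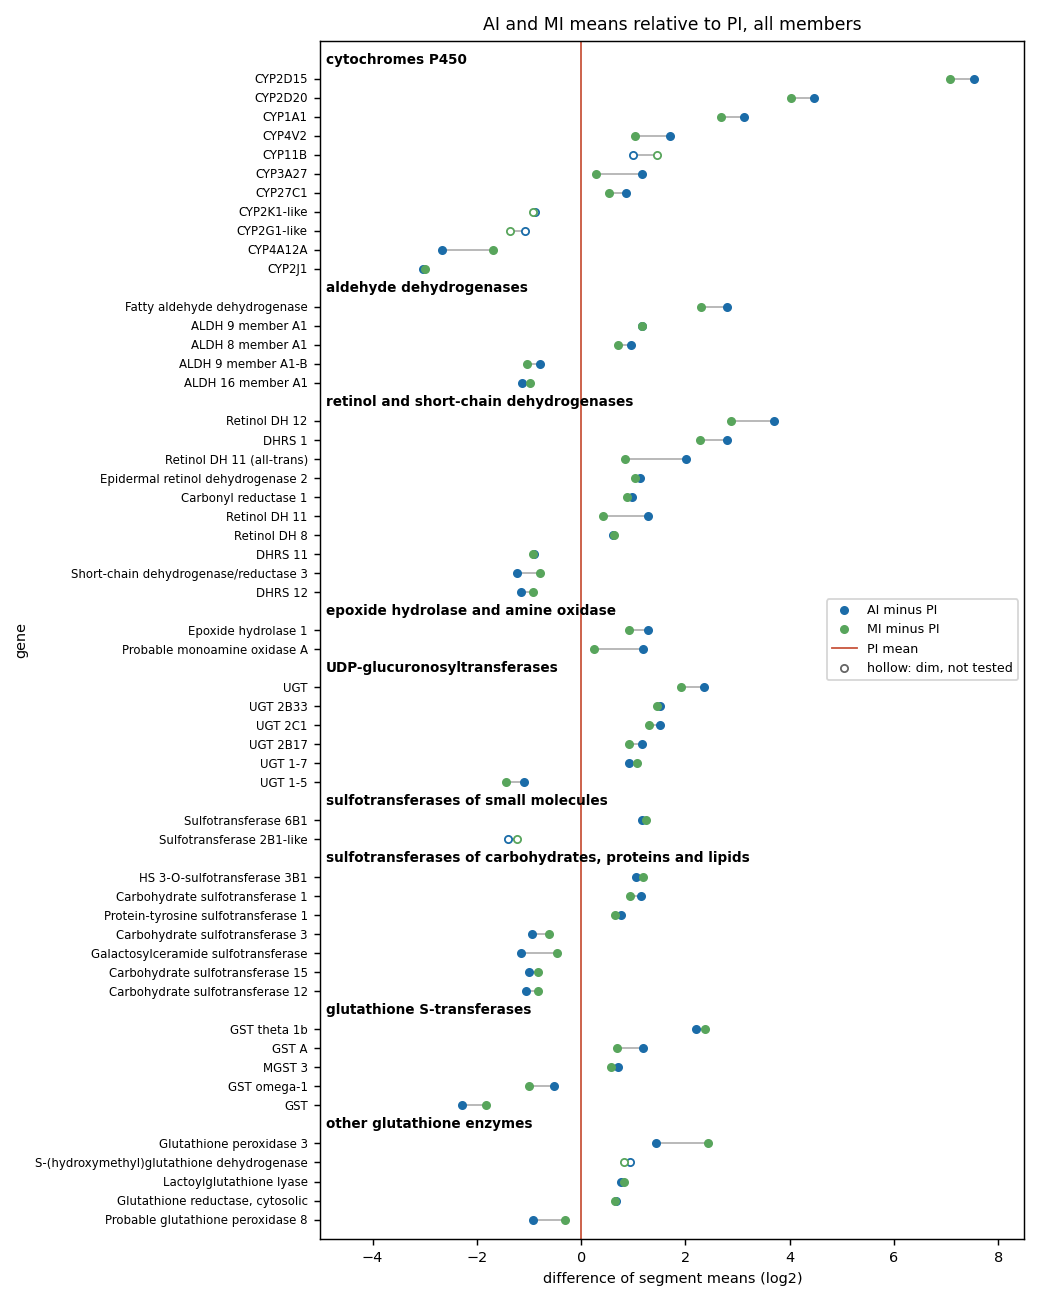
AI minus PI and MI minus PI differences of segment means (log2, x axis) for the 53 members (y axis), grouped by role; the vertical line is the PI mean and hollow points are the 5 members too dim to be tested. CYP2D15 stands furthest to the right at 7.32 for AI-MI minus PI, and CYP2J1 furthest to the left at -3.02.

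Among the members, those named cytochrome P450 held the widest differences, 7 of 11 having the higher mean in AI-MI. Cytochromes P450 that the list names by their reaction alone were not found by the pattern, so the family is incomplete here. CYP2D15 belongs to a subfamily that oxidises many drugs in mammals. Its AI arrays ran from -1.50 to 3.39 (median 2.91), its MI arrays from 0.36 to 3.0 (median 1.86) and its PI arrays from -7.97 to -3.11 (median -5.01). AI and MI overlapped each other but not PI, and the means were 2.31 ± 1.61 (SD, n = 8) in AI, 1.85 ± 0.94 (n = 7) in MI and -5.22 ± 1.83 (n = 8) in PI, a 159-fold difference between AI-MI and PI. The lowest AI array, AI replicate 2, lay 3.41 below the next one, and 6 of the 8 PI arrays were well above background. The size of the difference depended on how background was treated, being 5.19 on the log2 scale with normexp correction in place of 7.32. Normexp fits the background and adds an offset, which draws low signals together.

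CYP2D20, of the same subfamily, showed the same order of segments. It ran from -2.82 to -1.24 in AI (median -1.75), from -3.32 to -1.92 in MI (median -2.16) and from -8.83 to -4.37 in PI (median -6.14). All 15 AI-MI arrays exceeded all PI arrays, by 19.1-fold in the mean, and PI again varied most (SD 1.51 against 0.46 in AI and 0.48 in MI). With normexp correction the difference was 1.83 in place of 4.25 on the log2 scale.

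CYP1A1 oxidises planar aromatic compounds and is the classical target of the aryl hydrocarbon receptor. Its AI arrays ran from -5.68 to -0.34 (median -4.61), its MI arrays from -5.67 to -3.86 (median -4.39) and its PI arrays from -8.69 to -5.67 (median -7.53). The PI signal was well above background on 3 of 8 arrays, against all 15 of AI-MI, and 14 of these 15 lay above the highest PI array. A single array, AI replicate 3, stood 3.68 above the next highest AI array, and without it AI averaged -4.86 ± 0.64 (n = 7), the AI-MI minus PI difference going from 2.92 to 2.62. With normexp correction the difference was 0.79. The paper lists primers of CYP1A1 for its check by real-time PCR, but its text gives no PCR fold for this gene.

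CYP3A27, of a subfamily that handles steroids and drugs and named from rainbow trout, had the smallest p of the cytochromes P450 between AI and MI, although it did not pass the adjusted test and CYP4A12A differed by more. It ran from 3.80 to 5.46 in AI (median 4.85), from 3.22 to 5.17 in MI (median 3.86) and from 3.38 to 3.99 in PI (median 3.55). The MI mean (3.87 ± 0.66) was nearer to PI (3.59 ± 0.20) than to AI (4.75 ± 0.48), and 9 of 15 AI-MI arrays lay above the highest PI array. MI replicate 7 stood 1.18 above every other MI array, inside the AI range.

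CYP4V2, in humans a fatty acid omega-hydroxylase, had its means in the order AI, MI and PI. Its arrays ran from 1.14 to 2.68 in AI (median 2.18), from 0.84 to 2.02 in MI (median 1.25) and from -0.36 to 0.96 in PI (median 0.40), with 14 of 15 AI-MI arrays above the highest PI array. CYP27C1, which converts vitamin A1 to A2 in zebrafish, was 1.64-fold higher in AI-MI and lay within -6.63 to -4.45 in AI-MI and -6.81 to -5.87 in PI.

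Opposite to these, CYP4A12A and CYP2J1 were higher in PI. CYP4A12A, of a family of fatty acid omega-hydroxylases, ran from -0.96 to 1.81 in AI (median 0.43), from 0.62 to 2.28 in MI (median 1.65) and from 2.59 to 3.52 in PI (median 2.99). Every PI array exceeded every AI-MI array, and MI lay between the others, with means of 0.39 ± 0.97, 1.37 ± 0.65 and 3.06 ± 0.39. CYP4V2 and CYP4A12A, both of family 4, thus differed in opposite directions between AI-MI and PI.

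CYP2J1 belongs to a subfamily that makes epoxides of polyunsaturated fatty acids and was named from rabbit small intestine. It ran from -8.60 to -3.28 in AI (median -4.34), from -8.11 to -2.73 in MI (median -4.72) and from -4.14 to -0.50 in PI (median -1.71), 8.09-fold higher in PI (-1.46 in place of -3.02 on the log2 scale with normexp correction). The lowest array of each segment carried replicate number 3, and 7 of 8 PI arrays lay above the highest AI-MI array.

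Without number 3, CYP2J1 ran from -5.23 to -3.28 in AI, from -5.38 to -2.73 in MI and from -2.19 to -0.50 in PI, so that PI no longer overlapped with AI or MI and was 6.99-fold higher. Number 3 lay 3.37 below the next AI array, 2.72 below the next MI array and 1.95 below the next PI array, and AI and MI replicate 3 were not well above background. One number was the lowest in all 3 segments for 10.5% of the 12775 probes with a value on every array, but by at least 1 log2 unit in each segment for 36 of them (0.282%). Of these 36, 12 had number 3 and 11 had number 5, and CYP2J1 was the only member. The labels do not say whether arrays of equal number come from 1 fish. This gene's pattern by number was singled out after its values were seen.

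The remaining 3 members named cytochrome P450 were too dim to be tested. CYP11B, which completes corticosteroid synthesis in steroidogenic tissue, was well above background on 2 MI arrays and nowhere else. CYP2G1-like, known from the nasal lining of mammals, was above it on 5 PI arrays only, and CYP2K1-like, a subfamily of fish, on 2 PI arrays only. The mean of CYP2G1-like over all PI arrays, undetected ones included, was 1.03-fold above the detection limit of AI, and there was no bound against MI. The others gave no bound. The measured differences (1.20, -1.21 and -0.91 for CYP11B, CYP2G1-like and CYP2K1-like) thus have no size that can be read.

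**Figure D2:**
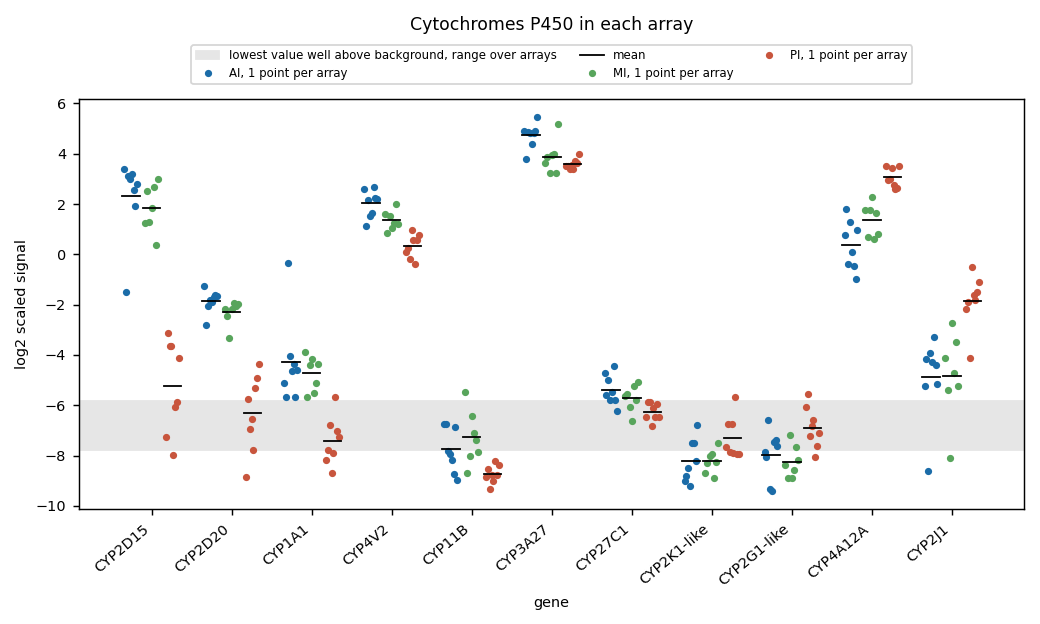
Log2 scaled signal (y axis) of the 11 cytochromes P450 (x axis) on each AI, MI and PI array, with bars for the segment means; the grey band spans the lowest values well above background over the arrays. CYP2D15 and CYP2D20 separate PI from the other segments, CYP2J1 has 1 low point in each segment, and CYP11B, CYP2K1-like and CYP2G1-like lie in or under the band but for 1 point each.

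Among the 5 aldehyde dehydrogenases, which turn aldehydes into acids, 3 had the higher mean in AI-MI. Fatty aldehyde dehydrogenase, which clears long-chain aldehydes, ran from 1.19 to 2.71 in AI (median 2.33), from 1.09 to 2.14 in MI (median 1.81) and from -1.19 to -0.13 in PI (median -0.64). All AI-MI arrays exceeded all PI arrays, by 5.92-fold in the mean. Family 16 member A1 ran the other way, from 0.99 to 2.24 in AI (median 1.70, n = 7 after 1 outlying spot was left out), from 1.61 to 2.14 in MI (median 1.80) and from 2.56 to 3.0 in PI (median 2.82), every PI array being the higher.

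The 2 family 9 enzymes went in opposite directions. Member A1, known for a step of carnitine synthesis, was 2.26-fold higher in AI-MI, with the same mean of 8.39 in AI and MI against 7.22 in PI, whereas member A1-B was 1.88-fold higher in PI. The difference of A1-B did not keep its direction with normexp correction, where it was 0.0065 in place of -0.91 on the log2 scale. Family 8 member A1 was 1.79-fold higher in AI-MI, with 13 of 15 arrays above the highest PI array.

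Of the 10 retinol and short-chain dehydrogenases, 7 had the higher mean in AI-MI. Retinol dehydrogenase 12, which reduces retinal in the vertebrate eye, showed the widest difference of this group. It ran from -1.03 to 2.55 in AI (median 0.73), from -0.78 to 0.93 in MI (median 0.21) and from -4.50 to -1.02 in PI (median -2.85), a 9.94-fold difference (2.62 in place of 3.31 on the log2 scale with normexp correction). The ranges touched only through AI replicate 2, at -1.03, and PI replicate 3, at -1.02.

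Dehydrogenase/reductase SDR family member 1 (DHRS1) ran from 3.55 to 4.95 in AI (median 4.10), from 3.25 to 3.97 in MI (median 3.59) and from -0.04 to 2.42 in PI (median 1.40). The segments AI-MI and PI did not overlap and differed by 5.85-fold. Of the other retinoid enzymes by name, epidermal retinol dehydrogenase 2 was 2.12-fold and retinol dehydrogenase 8 was 1.53-fold higher in AI-MI.

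Retinol dehydrogenase 11, a reductase of retinal, was represented by 2 probes of different clones. One was 1.84-fold higher in AI-MI and well above background everywhere, with means of 1.79 ± 0.75 in AI, 0.92 ± 0.56 in MI and 0.50 ± 0.50 in PI. A second probe, annotated as All-trans/9-cis/11-cis, was near background, being well above it on 7 of 8 AI, 4 of 7 MI and 3 of 8 PI arrays, and was 2.76-fold higher in AI-MI (0.45 in place of 1.46 on the log2 scale with normexp correction). Both had their means in the order AI, MI and PI, and both had their lowest AI value in AI replicate 2.

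Carbonyl reductase 1, which reduces quinones and prostaglandins, was 1.90-fold higher in AI-MI with no overlap, from 2.82 to 3.56 in AI-MI and from 1.83 to 2.60 in PI. The 3 enzymes higher in PI were DHRS12 (2.06-fold), short-chain dehydrogenase/reductase 3 (2.04-fold), which in mammals turns retinal back into retinol, and DHRS11 (1.89-fold). DHRS12 ran from -1.36 to -0.32 in AI (median -1.01), from -1.07 to -0.02 in MI (median -0.58) and from -0.37 to 1.17 in PI (median 0.33), with 6 of 8 PI arrays above all AI-MI arrays. DHRS11 separated completely, from 2.87 to 3.41 in AI-MI against 3.62 to 4.32 in PI.

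Epoxide hydrolase 1, which opens the reactive epoxides that cytochromes P450 leave, was 2.15-fold higher in AI-MI, with means of 4.50 ± 0.37 in AI, 4.14 ± 0.33 in MI and 3.22 ± 0.51 in PI. A probable flavin-containing monoamine oxidase A, an amine-oxidising enzyme by name, ran from -6.39 to -5.10 in AI (median -5.92), from -7.29 to -5.86 in MI (median -6.93) and from -7.47 to -6.11 in PI (median -7.15). It was well above background on all 8 AI arrays but on 5 of 7 MI and 5 of 8 PI arrays, and its MI mean was nearer to PI than to AI. The AI minus MI difference of this dim probe was 0.93 on the log2 scale, but 0.013 with normexp correction.

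Of the 6 UDP-glucuronosyltransferases (UGT), which attach glucuronic acid, 5 were higher in AI-MI, with a median difference of 1.23 over the 6. The widest was the one named UDP-glucuronosyltransferase only, which ran from 1.69 to 3.36 in AI (median 2.85), from 1.79 to 2.81 in MI (median 2.31) and from -0.42 to 1.91 in PI (median 0.17). It was 4.44-fold higher in AI-MI, and 13 of 15 AI-MI arrays lay above the highest PI array. UGT2B33 (2.81-fold) and UGT2B17 (2.07-fold), the latter an enzyme of androgen glucuronidation in humans, showed no overlap between AI-MI and PI.

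UGT2C1 was 2.67-fold and UGT1-7 1.99-fold higher in AI-MI. UGT1-7 had its lowest AI, MI and PI arrays under number 3, at -1.56, -0.90 and -1.65. UGT1-5 alone was higher in PI, by 2.40-fold, and ran from -5.46 to -3.13 in AI (median -4.69), from -5.70 to -4.21 in MI (median -5.08) and from -5.04 to -1.62 in PI (median -3.26). Its PI arrays overlapped with those of AI-MI, and the difference ranged from -0.38 to -2.13 when taken within single slides and was -0.43 in place of -1.26 with normexp correction.

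**Figure D3:**
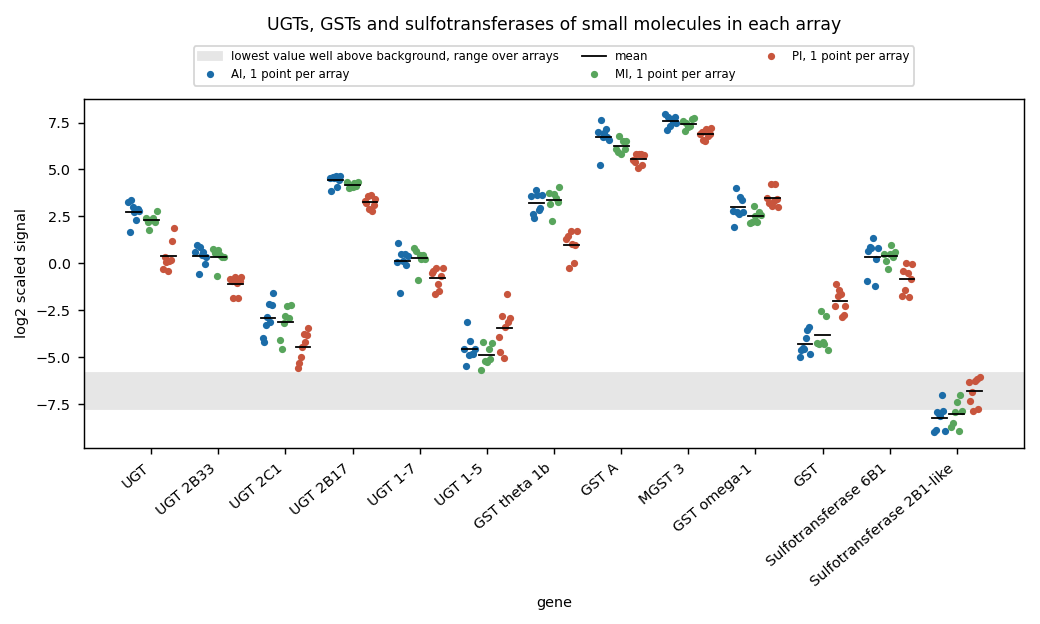
Log2 scaled signal (y axis) of the 6 UGTs, 5 glutathione S-transferases and 2 sulfotransferases of small molecules (x axis) on each array, with bars for the segment means and a grey band for the lowest values well above background. UGT2B17 and GST theta 1b separate PI from AI-MI, and UGT1-5, GST omega-1 and the probe named GST are higher in PI.

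Of the 2 sulfotransferases of small molecules, sulfotransferase 6B1 was 2.29-fold higher in AI-MI, from -1.23 to 1.34 in AI (median 0.74), from -0.32 to 0.97 in MI (median 0.51) and from -1.77 to 0.02 in PI (median -0.66). The 2B1-like enzyme, of a subfamily that sulfates cholesterol and related steroids, was well above background on 0 AI, 1 MI and 5 PI arrays. Its mean over all PI arrays (-6.81), undetected ones included, was 1.09-fold above the detection limit of the AI arrays (measured AI mean -8.22). This is no strict lower bound.

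The 7 sulfotransferases of carbohydrates, proteins and lipids split into 3 on the AI-MI side and 4 on the PI side, none of them with complete separation. Heparan sulfate glucosamine 3-O-sulfotransferase 3B1, which modifies heparan sulfate chains, ran from -2.95 to 0.14 in AI (median -0.75), from -2.20 to 0.21 in MI (median -0.91) and from -2.67 to -1.69 in PI (median -2.0). It was 2.17-fold higher in AI-MI, and the lowest array of every segment again had number 3. Carbohydrate sulfotransferase 1, of keratan sulfate, was 2.07-fold and protein-tyrosine sulfotransferase 1 was 1.64-fold higher in AI-MI.

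The 3 enzymes known to sulfate chondroitin chains were on the PI side. Carbohydrate sulfotransferase 12 ran from -2.49 to -1.82 in AI (median -2.13), from -2.44 to -1.40 in MI (median -1.94) and from -1.68 to -0.57 in PI (median -0.99), 1.93-fold higher in PI. Carbohydrate sulfotransferases 15 and 3 were 1.90-fold and 1.73-fold higher in PI. Galactosylceramide sulfotransferase, which makes the membrane lipid sulfatide, was 1.79-fold higher in PI and well above background on 4 of 8 AI, 5 of 7 MI and all 8 PI arrays. With normexp correction its difference turned to 0.13 in place of -0.84 on the log2 scale, and that of carbohydrate sulfotransferase 3 was -0.015 in place of -0.79.

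Among the 5 glutathione S-transferases (GST), which join glutathione to reactive compounds, 3 had the higher mean in AI-MI. GST theta 1b ran from 2.42 to 3.89 in AI (median 3.27), from 2.24 to 4.04 in MI (median 3.47) and from -0.25 to 1.74 in PI (median 1.18). AI-MI and PI did not overlap, and the difference was 4.88-fold. GST A (1.93-fold) and the microsomal GST 3 (1.56-fold) had 13 of 15 AI-MI arrays each above the highest PI array.

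The probe named glutathione S-transferase with no class went the other way. It ran from -4.99 to -3.38 in AI (median -4.53), from -4.60 to -2.52 in MI (median -4.23) and from -2.88 to -1.11 in PI (median -2.0), 4.20-fold higher in PI (-1.01 in place of -2.07 on the log2 scale with normexp correction). The MI arrays under numbers 3 and 6, at -2.52 and -2.80, reached into the PI range. GST omega-1 was 1.67-fold higher in PI, and its MI mean (2.50) lay below both AI (2.98) and PI (3.49).

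Of the 5 other glutathione enzymes, 4 were higher in AI-MI. Glutathione peroxidase 3, in mammals a secreted enzyme that reduces peroxides in plasma, ran from 1.81 to 3.53 in AI (median 2.77, n = 7 after 1 outlying spot was left out), from 2.14 to 4.99 in MI (median 3.16) and from 0.65 to 1.58 in PI (median 1.18). AI-MI and PI did not overlap and differed by 3.82-fold. In MI it fell into 4.82 to 4.99 on replicates 5, 6 and 7 and 2.14 to 3.16 on replicates 1 to 4.

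These 3 MI arrays were those with the most pancreatic acinar RNA. The summed log2 level of the 14 pancreatic markers was 11.86, 11.56 and 10.98 on MI replicates 5, 6 and 7, and 5.70 to 9.89 on the other MI arrays. In AI, replicate 4 had both the highest glutathione peroxidase 3 (3.53) and the highest pancreatic sum (10.71). In PI the order was different. There replicate 4 had the highest glutathione peroxidase 3 (1.58) and the lowest pancreatic sum (1.84), and replicate 6, with the highest sum (5.77), had 1.11. Without MI replicates 5 to 7 the AI-MI minus PI difference was 1.45 in place of 1.93 on the log2 scale. The part of pancreatic tissue in this gene's level was not tested, and the pairing of these values was chosen after they were seen.

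**Figure D4:**
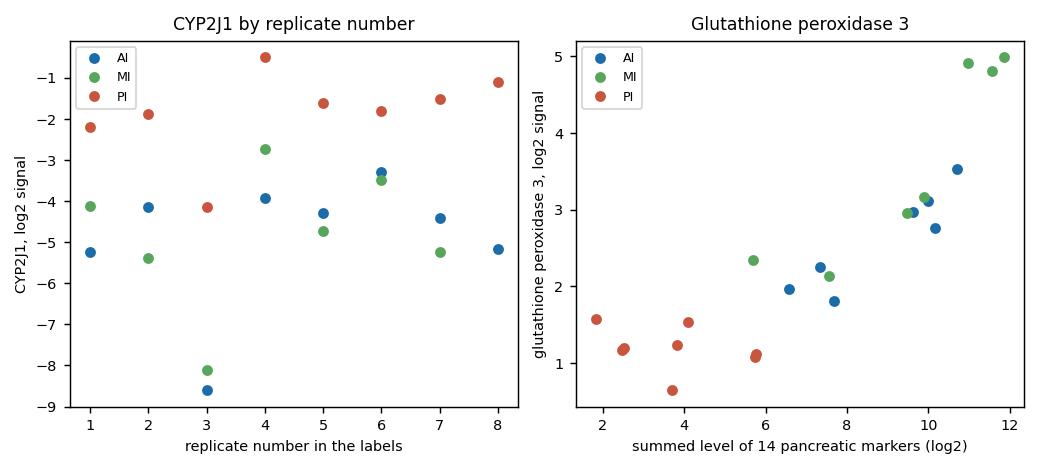
Left, log2 scaled signal of CYP2J1 (y axis) against the replicate number in the labels (x axis), 1 point per array, with number 3 lowest in AI (-8.60), MI (-8.11) and PI (-4.14). Right, glutathione peroxidase 3 (y axis, log2) against the summed log2 level of 14 pancreatic acinar markers (x axis), with MI replicates 5, 6 and 7 at the upper right, between 4.82 and 4.99.

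Glutathione reductase, which restores reduced glutathione, was 1.58-fold higher in AI-MI, and all its AI-MI arrays (-4.64 to -3.87) exceeded all PI arrays (-5.26 to -4.69). Lactoylglutathione lyase, which detoxifies methylglyoxal, was 1.74-fold higher in AI-MI. The probable glutathione peroxidase 8, an enzyme of the endoplasmic reticulum in mammals, ran from -0.22 to 0.67 in AI (median 0.08), from 0.15 to 1.06 in MI (median 0.66) and from 0.61 to 1.62 in PI (median 0.99). The probe named S-(hydroxymethyl)glutathione dehydrogenase, which oxidises the formaldehyde adduct of glutathione, was well above background on 4 of 23 arrays, spread over all segments, and was not tested. Alcohol dehydrogenase class-3, a name also used for this enzyme, was well above background on every array and 1.79-fold higher in AI-MI. Its chain L was so too, and 2.34-fold higher in AI-MI with no overlap.

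For 37 of the 48 members tested (77.1%), the MI mean lay between the AI and PI means. The same was true of 50.9% of all 12894 probes and of 66.3% of the 5684 probes that passed the test for AI-MI vs. PI, a choice of probes that favours this order. The 5684 probes had no fold limit, while no member was under 1.53-fold, so these shares come from sets not matched by size of difference. On a scale where the AI mean is 0 and the PI mean is 1, the median place of MI was 0.17 over the members and 0.13 over those 5684 probes, so that MI mostly stayed close to AI. For 6 members MI was nearer to PI, namely the monoamine oxidase (0.79), CYP3A27 (0.76), retinol dehydrogenase 11 (0.68 and 0.58) and glutathione peroxidase 8 (0.67), and galactosylceramide sulfotransferase (0.59).

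In the direct comparison of AI with MI, no member passed the test. The limma fit of the 15 AI and MI arrays called 0 of 12894 probes (0%), 0 members among them, at an adjusted p of 0.05, and the test named in the methods also called 0 of both. At an unadjusted p of 0.05 the fit had 9 of 48 members (18.8%) and 12.7% of all probes. The share was not counted over the 5684 probes called for AI-MI vs. PI, so it is not shown to be particular to these enzymes. All 9 members had the sign of their AI-MI minus PI difference, by which members were chosen on the same arrays. Of these 9, 7 were higher in AI (the monoamine oxidase, CYP3A27, DHRS1, CYP4V2, fatty aldehyde dehydrogenase and both probes of retinol dehydrogenase 11) and 2 in MI (glutathione peroxidase 8 and CYP4A12A).

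The 5 members with the smallest p differed as follows by limma. Glutathione peroxidase 8 was lower in AI by a log2 difference of -0.61 (SE 0.15, adjusted p = 0.181). The monoamine oxidase was higher in AI by 0.93 (SE 0.23, limma adjusted p = 0.184), a difference of 0.013 with normexp correction (limma adjusted p = 0.982). CYP3A27 was higher by 0.88 (SE 0.28, limma adjusted p = 0.236). DHRS1 was higher by 0.52 (SE 0.18, limma adjusted p = 0.256) and CYP4V2 by 0.67 (SE 0.24, limma adjusted p = 0.257). Over all 48 members the median AI minus MI difference was 0.11, beside 0.02 over all probes tested, and the median absolute difference 0.29, beside 0.17. Neither median was computed for the probes called for AI-MI vs. PI.

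**Figure D5:**
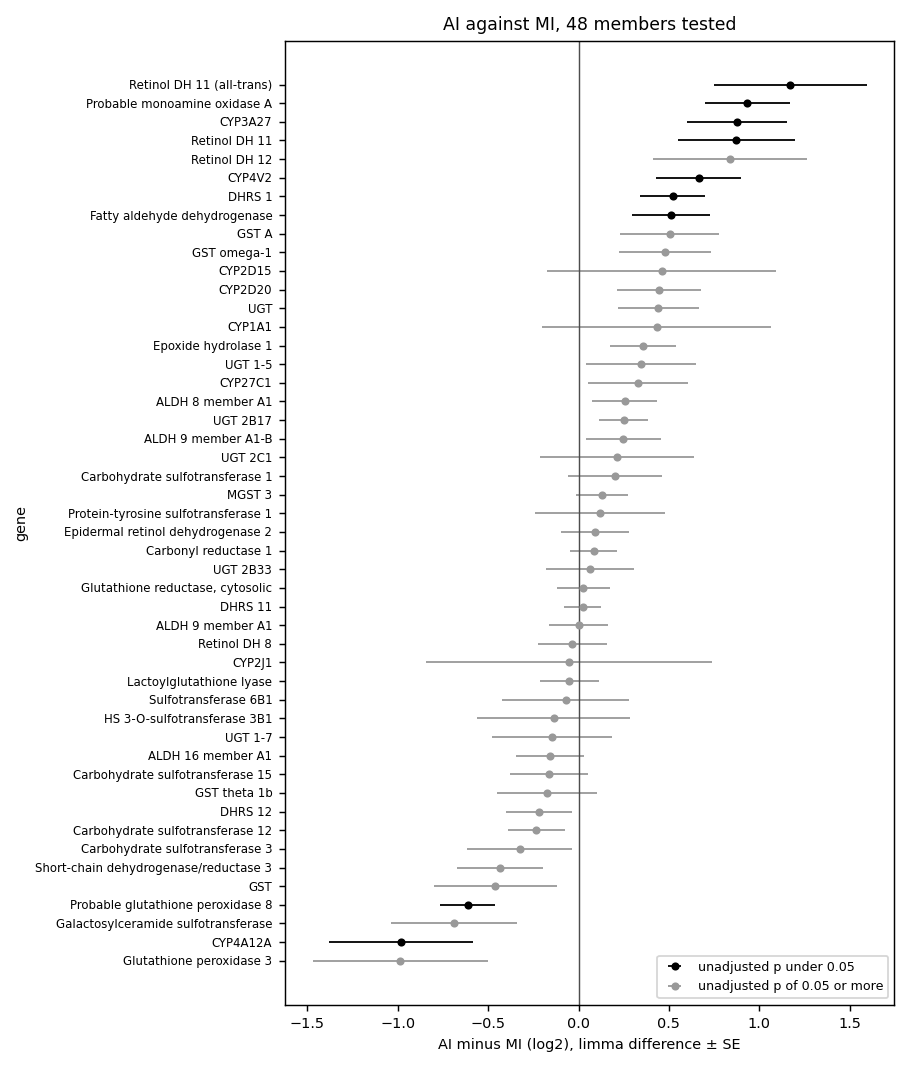
AI minus MI difference (log2, x axis) with its standard error from limma for the 48 members tested (y axis); black marks the 9 members with an unadjusted p under 0.05. Retinol dehydrogenase 11 (all-trans) and the monoamine oxidase lie furthest on the AI side among these, CYP4A12A (-0.98) furthest on the MI side, and none passed an adjusted p of 0.05.

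The result of this comparison turned on AI replicate 2. On that array 35 of 48 members lay on the PI side of their AI mean, by a median of 0.54 log2 units, and over the 5684 probes called for AI-MI vs. PI the shift was 0.19 (68.4% of probes lay on that side). Its enterocyte sum (8.83) was the lowest of the AI arrays. Without it limma called 588 probes (4.56% of all tested) between AI and MI. The share among probes called for AI-MI vs. PI was not counted. Of the 588 probes, 8 were members. These were glutathione peroxidase 8 (-0.69), both retinol dehydrogenase 11 probes (1.11 and 1.46), the monoamine oxidase (0.98), CYP3A27 (1.01), GST A (0.72), CYP4V2 (0.79) and fatty aldehyde dehydrogenase (0.65), with limma adjusted p between 0.0144 and 0.0497. Without MI replicate 7 limma called 40 probes, glutathione peroxidase 8 being the 1 member among them (-0.71, limma adjusted p = 0.0475). A joint fit with the PI arrays called 49 probes (0.38%), 0 members among them.

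The spread among arrays of a segment was wider for the members than for the probes at large. It was not computed for the 5684 probes called for AI-MI vs. PI, so it is not shown to be particular to these enzymes. The median SD over the 48 members was 0.54 in AI, 0.44 in MI and 0.44 in PI, beside 0.38, 0.34 and 0.32 over all probes tested. It went up to 1.70 in AI (CYP1A1), 1.73 in MI (CYP2J1) and 1.83 in PI (CYP2D15), and down to 0.16, 0.14 and 0.15.

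Other genes of these pathways that the study named were looked up by name patterns. All come from the same list of AI-MI vs. PI differences, so that counts by direction are a description, and in AI vs. MI 0 of them passed the limma test. Of 5 efflux pumps 3 were higher in PI, multidrug resistance-associated protein 9 by 6.79-fold and protein 4 by 3.13-fold among them. A second gene, multidrug resistance-associated protein 4-like, was 1.89-fold higher in AI-MI, and multidrug resistance protein 1 was higher in AI-MI by 0.63 on the log2 scale. The paper lists canalicular multispecific organic anion transporter 1 as higher in PI, but the patterns did not find this name. Of 13 further alcohol and carbonyl enzymes 8 were higher in AI-MI, but those with the widest differences, alcohol dehydrogenase A (37.2-fold) and 17-beta-hydroxysteroid dehydrogenase 14 (11.2-fold), were higher in PI with no overlap. Alcohol dehydrogenase A was well above background on only 4 of 8 AI arrays, so its fold has no firm size. Its means were -6.81 in AI, -4.06 in MI and -0.31 in PI.

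Enzymes of cofactor supply split evenly, 2 to 2. UDP-glucose 6-dehydrogenase, which makes the donor of glucuronic acid, was 3.64-fold higher in AI-MI, with overlap. Its means were 1.15 in AI, -0.65 in MI and -1.55 in PI, so that MI was nearer to PI than to AI. Of the 6 UGTs 5 were on the AI-MI side too, but no UGT had its MI mean nearer to PI. The bifunctional phosphoadenosine phosphosulfate synthase 1, which makes the sulfate donor, was 2.47-fold higher in PI. Of 6 genes of glutathione synthesis and breakdown 5 were higher in PI. Gamma-glutamyltransferase 5-like was 27.3-fold higher in PI with overlap, but was well above background on only 3 of 15 AI-MI arrays. Gamma-glutamyltranspeptidase 1 was 4.40-fold higher in PI, also with overlap, its highest AI array (6.28) lying above the highest PI array (6.02). In contrast, 4 of the 5 other glutathione enzymes and 3 of the 5 GSTs were higher in AI-MI. Of 5 methyl and related transferases 3 were higher in AI-MI, histamine N-methyltransferase A by 7.68-fold and arsenite methyltransferase by 6.37-fold.

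Of 8 genes of peroxide and superoxide removal 7 could be tested, and 5 of these were higher in AI-MI, catalase by 2.60-fold with no overlap. Both adrenodoxin, the electron donor of mitochondrial cytochromes P450 (2.88-fold), and its reductase (1.71-fold) were higher in AI-MI. Of 10 genes that handle retinoids 7 were higher in AI-MI, as were 7 of the 10 retinol and short-chain dehydrogenases. Among them retinol-binding protein 3 was at background on all PI arrays and at least 15.1-fold higher in AI-MI, and lecithin retinol acyltransferase, which stores retinol as its ester, had 1 probe on each side, with log2 differences of 1.44 and -3.22.

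All 48 members tested kept their AI-MI vs. PI direction within each of the 3 slides, which held 2 to 3 arrays of every segment. The members were chosen by this difference on the same arrays, so this count is a description and no independent check.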

How the data were processed

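The authors extracted spot intensity values with Agilent Feature Extraction 11.5.1.1, and the deposited files hold for every spot a processed signal, which is an intensity after background subtraction, and the median signals of spot and background. The authors' deposited table of log2 values, 1 per probe and array, was used as an alternative, and it differed from the values computed here by a median of 0.00245 to 0.0152 per array. The paper and the labels differ in the amount of RNA labelled.

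Between 1 and 47 outlying spots per array were left out, spots of a probe were averaged on the log2 scale, and arrays were scaled to their 75th percentiles. Probes that 7 or more arrays showed well above background entered a two-sided test on the AI and MI arrays, with lmFit and eBayes of limma 3.58.1 (R 4.3.3), Benjamini-Hochberg adjustment over 12894 probes and a threshold of 0.05. Python 3.11.15 with numpy 2.4.6, pandas 2.3.3 and matplotlib 3.10.9 did the rest. The fit was tested on simulated data. A probe dim on all arrays of a segment has only a bound, against the lowest signal well above background on each array. For array data the number of arrays limits precision. The p-values measure the spread between arrays taken as independent, as the labels do not say which arrays share a fish.

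Alternatives were quantile normalization, normexp correction (offset 50, on median signals), the authors' table, all probes without the dim filter, the methods' t-test, eBayes with a trend, a slide or replicate block, a joint fit and each array left out. Fits within slides and the removal of arrays from single genes were added after values had been seen. Gene names come from the study's list of AI-MI vs. PI differences, and 0 of its clones matched the RefSeq table. All members were named within their role, and values by segment were given for the widest differences of each role, CYP1A1, CYP3A27, the 5 smallest p of AI vs. MI and dim members. The members and lists were chosen with earlier results of these data known.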

Additional observations from a re-analysis of the deposited data

Results flagged for a closer look

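Within segments, 13 of 159 gene and segment combinations had an array whose distance from its nearest neighbour was large for the range of the group, where about 1 in 20 are reached by chance. AI replicate 2 was the lowest AI array for CYP2D15 (-1.50, next 1.91), GST A (5.24, next 6.59) and both retinol dehydrogenase 11 probes (0.16, next 1.55, and -7.23, next -5.38). Arrays of number 3 were apart for CYP1A1, which was highest on AI replicate 3 (-0.34, next -4.02), for CYP2J1, lowest on AI replicate 3 (-8.60) and PI replicate 3 (-4.14), and for UGT1-7, lowest on AI replicate 3 (-1.56) and MI replicate 3 (-0.90). MI replicate 3 was also the lowest for CYP2D20 (-3.32, next -2.46) and UGT2B33 (-0.70, next 0.32). MI replicate 7 was the highest for CYP3A27 (5.17, next 4.0) and protein-tyrosine sulfotransferase 1 (-1.64, next -3.39). What set these arrays apart was not tested.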

How the results depend on the processing

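The count of tested members higher in AI-MI was 33, and it was 35 with normexp correction and 33 in each other fit of the 48 members, including the fits within slides. With normexp correction aldehyde dehydrogenase family 9 member A1-B and galactosylceramide sulfotransferase changed direction, and the fold of AI-MI vs. PI was over 1.5 times smaller for 11 of 48 members and over 1.5 times larger for 0. The AI minus MI difference of the monoamine oxidase was then 0.013 in place of 0.93. The median AI-MI minus PI difference was 0.72 in place of 0.86.

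The count of members called between AI and MI was 0 in every setting, except 8 without AI replicate 2 and 1 without MI replicate 7 (0 to 8 over arrays left out). Leaving out arrays moved the median AI minus MI difference between 0.04 and 0.17, and the count with MI between AI and PI between 35 and 39. With the replicate block 0 members were called and 13 had an unadjusted p under 0.05, beside 9 without it, while over all 12894 probes 2642 did, beside 1638. Arrays of equal number correlated at 0.00590 to 0.449 between AI and MI, with 6 of 7 pairs over 0.1 and 4 of 7 best with their own number. Between AI and PI they correlated at 0.189 to 0.590 (8 of 8 pairs over 0.1, 8 best with their own number), and between MI and PI at 0.0028 to 0.553 (6 of 7 and 5 of 7), which is a hint from the data and not from the labels. Arrays of unequal number had median correlations of -0.060 (AI and MI), -0.047 (AI and PI) and -0.039 (MI and PI). Since not every pair was over 0.1, the numbers were not used as a pairing of AI with MI. The main AI vs. MI p-values of limma therefore take no account of a pairing. With 7 MI arrays for the 8 samples of the methods, MI numbers may not match those of AI and PI. The replicate block may then pair some arrays wrongly, which was not tested. Low signal over background limits the size of the differences of dim probes, and for some also their direction.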
